A study of Homo sapiens with 9 samples.

Results

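NDC80 (also called HEC1) encodes the subunit of the NDC80 complex that binds microtubules. This complex has 4 proteins, NDC80, NUF2, SPC24 and SPC25, and sits in the outer kinetochore, the structure on each chromosome that the mitotic spindle pulls. It also serves as a platform for the checkpoint that holds back chromosome separation until every kinetochore is attached. Its genes are mainly transcribed late in the cell cycle, and in tumours such as glioblastoma their RNA is commonly read as a mark of dividing cells. The members were all rows of the count table whose RefSeq transcript belongs to NDC80, and the table held 1 such row, NM_006101.3, of 159067 transcripts. The gene was chosen by its own values in these libraries: lower with evernic acid (EA), higher with temozolomide (TMZ), and in between with the combinations. Its levels, fold changes and concentration terms are therefore a description and carry no test.

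The RNA came from U-87, an established human glioblastoma cell line, after 24 h. EA is a lichen depside, and TMZ is the alkylating drug used as standard therapy of glioblastoma. There were 3 libraries of untreated cells (Control) and 1 library each of EA at 30 µM (EA30), EA at 45 µM (EA45), TMZ at 600 µM (TMZ600), and the combinations of EA 35 µM with TMZ 320 µM (EA35TMZ320), EA 20 µM with TMZ 380 µM (EA20TMZ380) and EA 20 µM with TMZ 580 µM (EA20TMZ580). No treatment was replicated, and no library held EA at 20 or 35 µM alone, or TMZ at 320, 380 or 580 µM alone. The labels do not say whether the controls were separate cultures, so their spread may be technical. Only transcript ends were sequenced (QuantSeq), and the table gives reads per RefSeq transcript.

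Depth was low, with 269057, 259753 and 285248 counts in the controls, 490235 in EA30, 325812 in EA45 and 304336 in TMZ600. The combinations had 367291 in EA20TMZ380, 330759 in EA20TMZ580 and 213566 in EA35TMZ320. A large share of the counts lay on the mitochondrial genome, 48.6, 48.4 and 49.1% in the controls and 51.7 to 58.7% in the treated libraries. Counting error alone leaves room for 3 counts where 0 were seen, that is, 6.86 CPM in EA30 and 14.8 CPM in EA35TMZ320. Here CPM is the count per 1000000 counts on tested transcripts, with library sizes scaled by the TMM method, and 618 transcripts whose mean reached 10 counts were tested. The label as a glioblastoma line could hardly be checked in this table: of 10 markers of such cells, 9 (VIM, CD44, CHI3L1, EGFR, SOX2, SOX9, GFAP, S100B and OLIG2) were listed at 0, and only NES, an intermediate filament of neural progenitors, had counts. Of 10 markers of other cell types, 9 were at 0, and CD3E, the most abundant, had 1 count in Control replicate 2 and 1 in TMZ600.

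NDC80 lies on the plus strand of chromosome 18 (chr18:2571557-2616635 in GRCh38.p14). The GENCODE transcript has 17 exons, and the last, chr18:2616437-2616635, spans 199 bases and includes the 64 bases of the 3′ UTR. Reads of a 3′ end library are expected near that end. The gene KATNBL1P3, a pseudogene on the minus strand inside an intron, overlaps it and had no row in the table. Whether counting used the strand is not given in the sources used here.

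NDC80 was counted 244, 179 and 223 times in the 3 controls. It was counted 126 times in EA30 and 26 times in EA45. The combinations had 48 counts in EA35TMZ320, 196 in EA20TMZ380 and 167 in EA20TMZ580, and TMZ600 had 410. Thus the lowest and the highest library were both single treatments, and the libraries differed in depth by far less than in NDC80.

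On the CPM scale the controls had 846, 650 and 728 CPM, a mean of 741 ± 99.1 CPM (SD, n = 3). EA30 had 288 CPM, with a 95% Poisson interval of 240 to 343. EA45 had 87.8 CPM, with an interval of 57.4 to 129. Both lay below every control, and their intervals did not overlap. EA35TMZ320 had 236 CPM (174 to 313), EA20TMZ380 605 CPM (523 to 696) and EA20TMZ580 539 CPM (460 to 627). TMZ600 stood above every control with 1209 CPM (1094 to 1331). These intervals cover counting error only, since reads copied by PCR are not independent molecules. The highest library had 13.8 times the CPM of the lowest. In bulk RNA, fewer cells that express NDC80 and less NDC80 RNA per cell cannot be told apart.

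**Figure D1:**
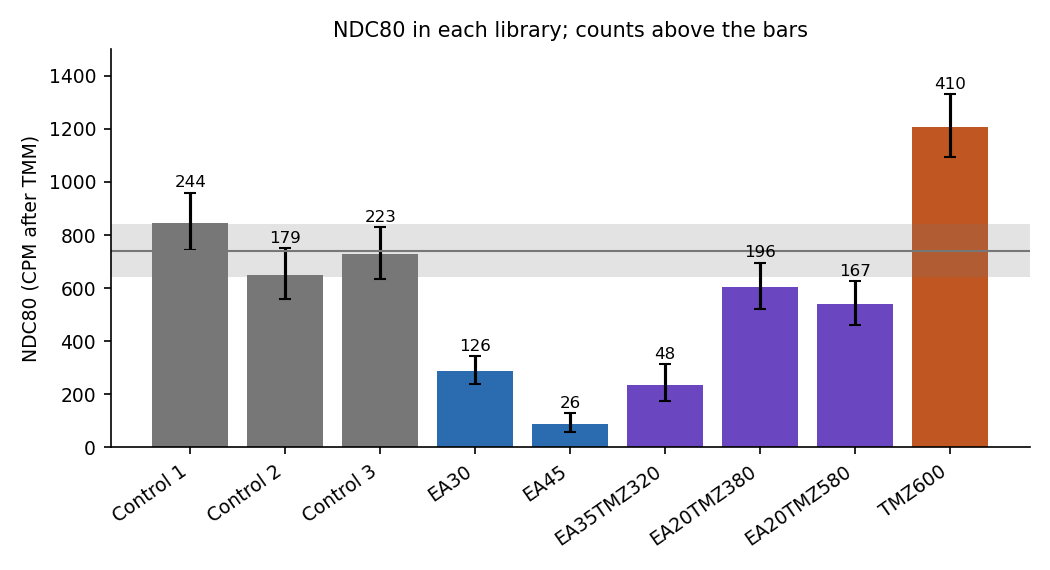
NDC80 in CPM after TMM (vertical axis) in the 9 libraries, with 95% Poisson intervals as bars and the counts above them; the line and band are the mean and SD of the 3 controls (741 ± 99.1 CPM). The libraries are coloured by kind: controls grey, EA alone blue, combinations purple, TMZ alone orange.

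Compared with the controls, the log2 fold change of NDC80 was -1.36 (standard error 0.22) in EA30 and -3.07 (standard error 0.29) in EA45, so that 38.9% and 11.8% of the mean control level were left. In TMZ600 it was 0.70 (standard error 0.19), or 163% of the mean control level. EA35TMZ320 gave -1.65 (standard error 0.26), EA20TMZ380 gave -0.29 (standard error 0.21) and EA20TMZ580 gave -0.46 (standard error 0.21). These errors take their spread from the controls, moderated over all tested transcripts, and each treated library is assumed to vary like a control. The median log2 fold change of all tested transcripts lay between -0.13 and -0.002 in the 6 treatments. Among the 618 transcripts, NDC80 took rank 13 from the lowest in EA45, rank 30 from the lowest in EA30 and rank 51 from the highest in TMZ600. EA35TMZ320 placed it at rank 89 from the lowest, EA20TMZ580 at rank 169 and EA20TMZ380 at rank 254.

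From high to low, the order of the levels was TMZ600, the controls, EA20TMZ380, EA20TMZ580, EA30, EA35TMZ320 and EA45. The same order of libraries was found in CPM of all counts and in CPM of nuclear counts. The distances between neighbours in it are given as a description, without a test. EA20TMZ380 was below the lowest control, and the interval of its log2 fold change ran from -0.70 to 0.11. EA20TMZ380 exceeded EA20TMZ580 by 0.17 on the log2 scale (standard error 0.25), and EA30 exceeded EA35TMZ320 by 0.29 (standard error 0.31). EA20TMZ580 exceeded EA30 by 0.90 (standard error 0.26), and EA35TMZ320 exceeded EA45 by 1.42 (standard error 0.38). Each of these steps sets 1 library against 1 library and was not tested. EA45 and EA30 differed by 1.71 on the log2 scale (standard error 0.34), with EA30 the higher.

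The levels were lower the higher the EA concentration, from 0 through 20, 30 and 35 to 45 µM, whether or not TMZ was present. At 0 µM EA the library with TMZ was the higher. At 20 µM EA the library with the higher TMZ concentration was the lower. All 3 combinations lay below every control although each contained TMZ. Lying outside the range of the 3 controls was common among the 618 tested transcripts. Of these, 25.9% were below every control in both EA30 and EA45, and 32.7% were above every control in TMZ600. For the combinations this share was not counted.

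**Figure D2:**
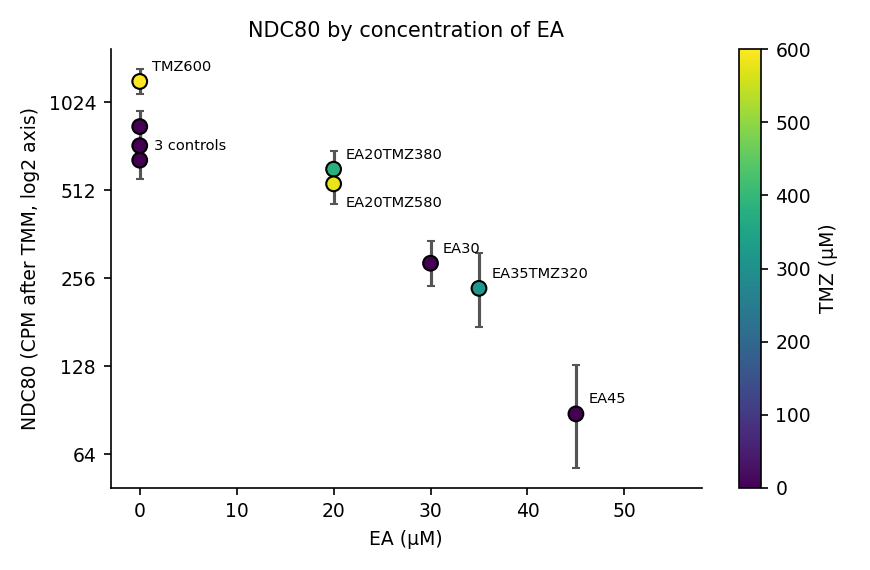
NDC80 in CPM after TMM (vertical log2 axis) against the concentration of EA in µM (horizontal axis); each point is 1 library with its 95% Poisson interval, and the colour gives TMZ in µM. The points descend from the controls and TMZ600 at 0 µM to 87.8 CPM at 45 µM.

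A fit of both concentrations over the 9 libraries gave a log2 change of NDC80 of -0.58 (standard error 0.07) for each 10 µM EA and of 0.13 (standard error 0.04) for each 100 µM TMZ. These correspond to 0.668 times the level for each step of EA and 1.09 times for each step of TMZ. Over all tested transcripts the median was -0.01 for the EA term and 0.002 for the TMZ term. NDC80 took rank 10 from the lowest for EA and rank 44 from the highest for TMZ.

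The sum of the 2 terms, without the intercept of that fit, gave the additive value for each combination. The observed fold changes come from the other fit, with 1 coefficient per condition, so the differences are not residuals. For EA35TMZ320 it was -1.62, beside an observed log2 fold change of -1.65. For EA20TMZ580 it was -0.42, beside -0.46. For EA20TMZ380 it was -0.67, beside -0.29, a difference of 0.38. Among the single treatments, the observed value minus the sum of the terms was 0.38 in EA30, -0.46 in EA45 and -0.07 in TMZ600. The combinations were themselves part of this fit, so the additive values are not predictions for new libraries.

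**Figure D3:**
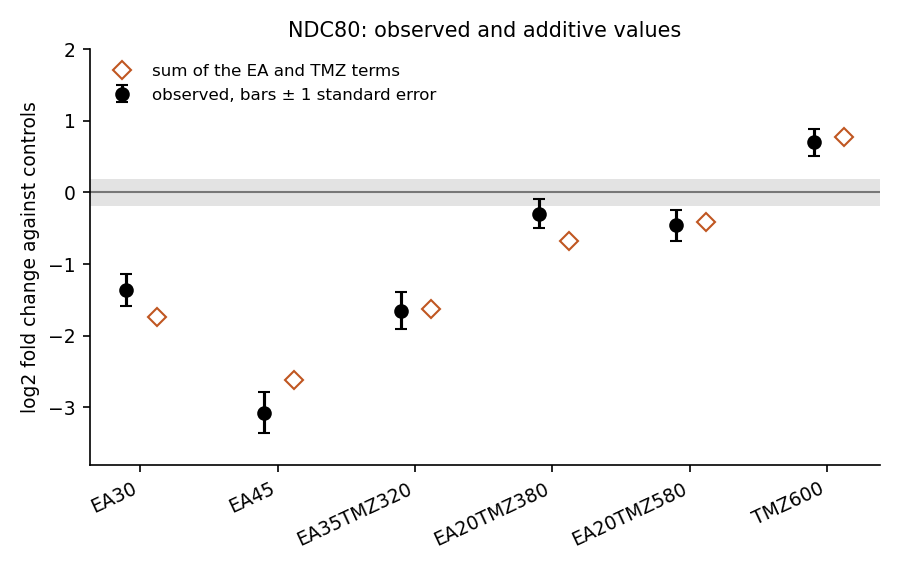
Log2 fold change of NDC80 against the controls (vertical axis) in the 6 treatments; black points with bars are the observed values ± 1 standard error, diamonds the sum of the fitted EA and TMZ terms, and the band ± 1 SD of the 3 controls on the log2 scale. Observed and additive values nearly coincide for EA35TMZ320 (-1.65 and -1.62) and EA20TMZ580 (-0.46 and -0.42). They are further apart for EA20TMZ380 (-0.29 and -0.67), EA30 (-1.36 and -1.74) and EA45 (-3.07 and -2.62). The combinations were part of the fit.

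The other proteins of the complex could not be followed. NUF2, SPC24 and SPC25, which form the complex with NDC80, were listed at 0 in every library. The same was true of all 17 listed genes of the outer kinetochore, such as the MIS12 and KNL1 proteins that hold the complex in place, and of all 21 listed genes of the inner kinetochore, which sits on centromeric chromatin. NDC80 was thus the only kinetochore gene among the 42 listed with a count. The table listed 2 or more transcripts for 39 of the other 41. Among the 98 listed genes of cell division other than NDC80, 82 of 84 with 2 or more transcripts and 6 of 14 with 1 transcript were at 0. Over the whole table, 14.4% of the genes with 1 transcript and 10.2% of those with more had any count. The part that the number of listed transcripts plays in these zeros was not tested, and a 0 here is no evidence that a gene was silent.

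Of these 98 genes of cell division, 88 were at 0, 8 had too few counts for testing and 2 were tested, PLK1 and NIPBL. PLK1, a mitotic kinase that acts at kinetochores and centrosomes, was counted 175, 173 and 153 times in the controls and between 158 and 247 times after treatment. Its CPM was 578 ± 68.9 (SD, n = 3) in the controls, 565 in EA30, 588 in EA45 and 640 in TMZ600, the treatments in which NDC80 ranged from 87.8 to 1209 CPM. The highest PLK1 values were those of EA35TMZ320, 778 CPM (log2 fold change 0.43, standard error 0.21, adjusted p by edgeR 0.0900), and EA20TMZ380, 756 CPM (0.39, standard error 0.20, adjusted p by edgeR 0.146). In the other 4 treatments it lay between -0.03 and 0.15. The standard errors of PLK1 were close to those of NDC80 in TMZ600 and EA20TMZ380. NIPBL (NM_015384.5), which loads cohesin onto chromosomes, had a control mean of 81.7 ± 34.4 CPM (SD, n = 3) and 83.7 to 106 CPM after treatment, with log2 fold changes from 0.04 to 0.38 and standard errors of 0.49 to 0.55. These are values of 1 of the 7 listed NIPBL transcripts, not of the whole gene: 3 had counts, and with counts summed per gene the log2 fold change was negative in 4 of 6 treatments, among them EA45 (-0.35) and EA20TMZ380 (-0.43).

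In edgeR, 0 of the 2 tested transcripts passed in any treatment, and the same number was found with DESeq2 and limma-voom. DESeq2 gave no adjusted p to NIPBL in EA20TMZ580. At an unadjusted p under 0.05 the number was 1 in EA35TMZ320 (PLK1), where 50.6% of all 618 transcripts were under it, and 0 elsewhere, where 20.7 to 45.6% were. The share of all tested transcripts that passed, higher and lower respectively, was 4.37% and 5.5% in TMZ600, 8.74% and 8.58% in EA30, and 19.6% and 19.3% in EA45. For the combinations it was 11.3% and 13.4% in EA20TMZ380, 11.3% and 11.8% in EA20TMZ580, and 20.2% and 23.6% in EA35TMZ320. Only 2 transcripts of the list were tested, and a difference from this background was not tested. The median log2 fold change of the 2 was between 0.14 and 0.31.

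Among the 8 genes with few counts, KIF11 and ASPM were the most abundant. KIF11, a motor protein that separates the spindle poles, had 3, 8 and 8 counts in the controls, 22 in TMZ600, 8 in EA30 and 8 in EA45, with 5 in EA20TMZ380, 2 in EA20TMZ580 and 12 in EA35TMZ320. ASPM, a protein of the spindle poles, had 8, 16 and 12 counts in the controls, 4 in EA30, 0 in EA45, 1 in EA35TMZ320 and 5 in each of EA20TMZ380, EA20TMZ580 and TMZ600. So the highest KIF11 count was in the library with the highest NDC80, whereas ASPM was below every control in TMZ600. The 8 genes together had 44.6, 112 and 77.1 CPM of all counts in the controls, 102 in TMZ600, 30.6 in EA30 and 24.6 in EA45, with 32.7 in EA20TMZ380, 27.2 in EA20TMZ580 and 65.6 in EA35TMZ320. EA35TMZ320 and TMZ600 lay within the range of the controls, and the other 4 treated libraries lay below the lowest control. These sums rest on few counts: 12, 29 and 22 in the controls, 31 in TMZ600 and 14 in EA35TMZ320. EA30 had 15, EA45 8, EA20TMZ380 12 and EA20TMZ580 9, so some had no fewer raw counts than Control replicate 1. The difference from the controls was not tested.

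Of 24 listed genes of the entry into S phase and of replication, 20 were at 0 and 4 had too few counts; RRM2, a subunit of the enzyme that makes deoxynucleotides, had 0, 3 and 0 counts in the controls, 15 in TMZ600 and 1 to 8 in the libraries with EA. All 20 listed genes of the p53 response and DNA damage, which TMZ can activate in cells with intact p53, were at 0, so no such response could be read here.

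Tubulins form the microtubules that NDC80 binds, and 3 of 17 listed were tested. The table listed 8 transcripts of TUBB6 with counts in 1 of them, so its values are those of NM_001303525.1 and not of the whole gene; how reads shared by several transcripts were counted is not given in the sources used here. TUBB6 passed as lower in 4 treatments and TUBB2B in 3, and TUBA4B passed in none. In TMZ600, where NDC80 was above every control, TUBB6 fell to 463 CPM from 763 ± 44.8 (SD, n = 3) in the controls (log2 fold change -0.72, standard error 0.21, adjusted p by edgeR 0.0167), and TUBB2B gave -1.74 (standard error 0.57, edgeR adjusted p = 0.0408). In EA45, where NDC80 was lowest, TUBB6 gave -0.47 (standard error 0.21, edgeR adjusted p = 0.0676) and TUBB2B -0.81 (standard error 0.52, edgeR adjusted p = 0.233). All tubulins that passed were lower, 2 of 3 in EA30, EA20TMZ580 and TMZ600, where 8.58, 11.8 and 5.5% of all tested transcripts passed as lower. The number was 1 in EA20TMZ380 (13.4% of all) and 0 in EA45 (19.3%) and EA35TMZ320 (23.6%). DESeq2 called 0 in every treatment, but it gave no adjusted p to TUBB2B in EA20TMZ580, nor to TUBA4B outside EA35TMZ320. Only 3 tubulin transcripts were tested, and the difference from these shares was not tested. At an unadjusted p under 0.05 it was 1 in EA45 (45.6% of all tested transcripts) and 0 in EA35TMZ320 (50.6%). The numbers in EA30 and TMZ600 fell to 1 without Control replicate 1, that in TMZ600 also without Control replicate 2, and that in EA20TMZ380 fell to 0 without Control replicate 2.

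**Figure D4:**
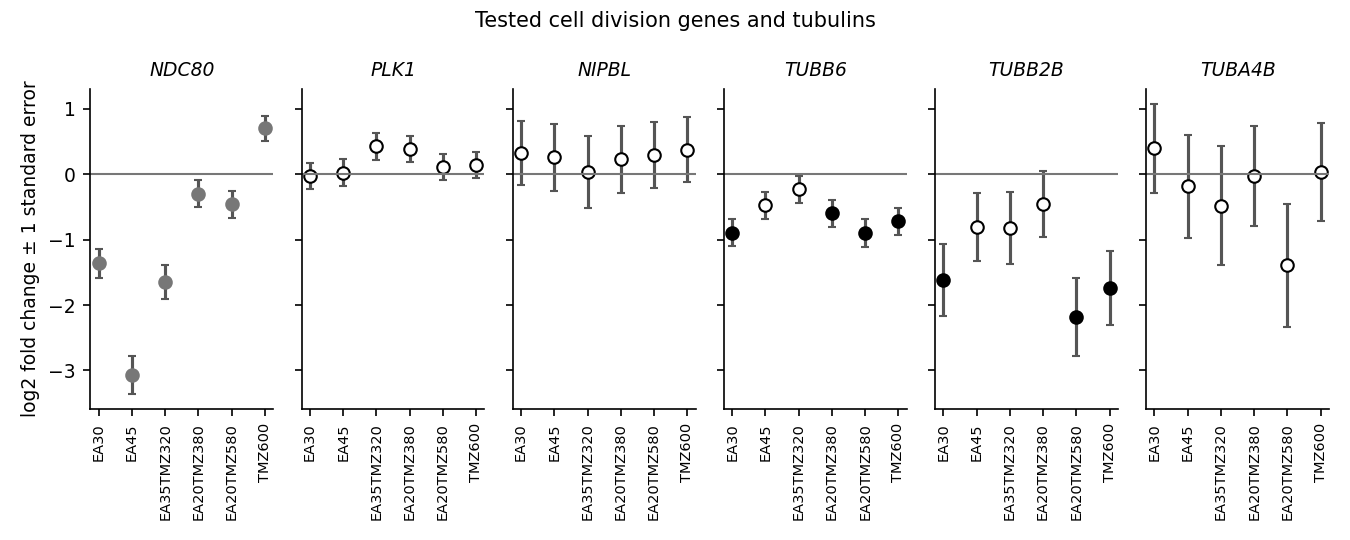
Log2 fold change ± 1 standard error against the controls (vertical axis) in the 6 treatments for NDC80, the other tested cell division genes PLK1 and NIPBL, and the tested tubulins TUBB6, TUBB2B and TUBA4B. Filled black points have an edgeR adjusted p under 0.05, open points do not, and grey points (NDC80) were not tested.

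NES differed from NDC80 in direction under TMZ. The controls had 570 ± 43.0 CPM (SD, n = 3), and NES fell in all 6 treatments, from 159 CPM in TMZ600 (log2 fold change -1.84 with standard error 0.31, adjusted p by edgeR 2.48e-05) to 50.7 CPM in EA45 (-3.48, standard error 0.38, edgeR adjusted p = 6.64e-10). EA45 was thus the lowest library for both genes.

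The pattern that chose NDC80 was counted over all tested transcripts: below every control in EA30 and EA45, above every control in TMZ600, and the 3 combinations between the lower EA value and TMZ600. It was met by 11 transcripts, or 1.78% of 618, NDC80 included. The mirror pattern, higher with EA and lower with TMZ, was met by 15 transcripts, or 2.43%. Without the condition on the combinations, 31 transcripts, or 5.02%, were below every control with EA and above every control with TMZ600. The 6 comparisons share the same controls, so such counts do not come from independent data. With total counts in place of TMM the pattern was met by 28 transcripts and its mirror by 6, and under the stricter filter of 50 mean counts by 3 and 8.

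The transcripts most like NDC80 over the 9 libraries were ranked by Pearson correlation of log2(CPM + 1), given as a description, since these libraries share doses, controls and scaling. SRCIN1 (XM_017025169.1), an adaptor that binds the kinase SRC, came first with r = 0.97 and a Spearman rho of 0.97. It had 1894, 1404 and 1355 CPM in the controls, 2164 in TMZ600, 743 in EA30 and 324 in EA45, with 1167 in EA20TMZ380, 923 in EA20TMZ580 and 803 in EA35TMZ320. ARHGAP28-AS1 (NR_134645.1), a long non-coding RNA gene that is also on chromosome 18, followed with r = 0.94 and 16.9 CPM in EA45 against 153 in TMZ600. The unnamed transcript XM_024450054.1 had r = 0.93, and METRN, which encodes a secreted factor of glial differentiation, had r = 0.93 with 64.2 CPM in EA45 and 280 in TMZ600. The other 6 of the highest 10 were UPF3A, FUT8-AS1, POLR2L, LOC105377363, FANCG and RNF182, with r from 0.87 to 0.91. For UPF3A, a factor of nonsense-mediated decay, POLR2L, a subunit shared by the RNA polymerases, LOC105377363 and RNF182, TMZ600 was not above every control.

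POLR2L had 10204 CPM at most in the controls, 8103 in TMZ600 and 3198 in EA45. FANCG, a protein of DNA crosslink repair, had 756, 664 and 679 CPM in the controls, 725 in EA30, 392 in EA45 and 861 in TMZ600. Over the 617 other tested transcripts the median r was 0.06, 28 had r above 0.8 and 21 had r below -0.8. Of the highest 10 by Pearson, 6 were also among the highest 10 by Spearman. Without EA45, an alternative chosen after seeing the data, 5 of the 10 were still among the highest 10 over the remaining 8 libraries: SRCIN1 (r = 0.93), ARHGAP28-AS1 (0.91), UPF3A (0.88), XM_024450054.1 (0.83) and METRN (0.83). The places of the others rested on that library.

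At the other end were NOL7, a nucleolar protein gene, with r = -0.94, the unnamed transcript XR_001748264.2 with -0.94, NCR3LG1, a ligand of natural killer cells, with -0.92, NUP153-AS1 with -0.91 and EEF2, the elongation factor of translation, with -0.91. NOL7 had 638, 624 and 640 CPM in the controls, 977 in EA30 and 1570 in EA45. In TMZ600 it had 631 CPM, within the range of the controls. Its likeness to an inverted NDC80 came from the libraries with EA.

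**Figure D5:**
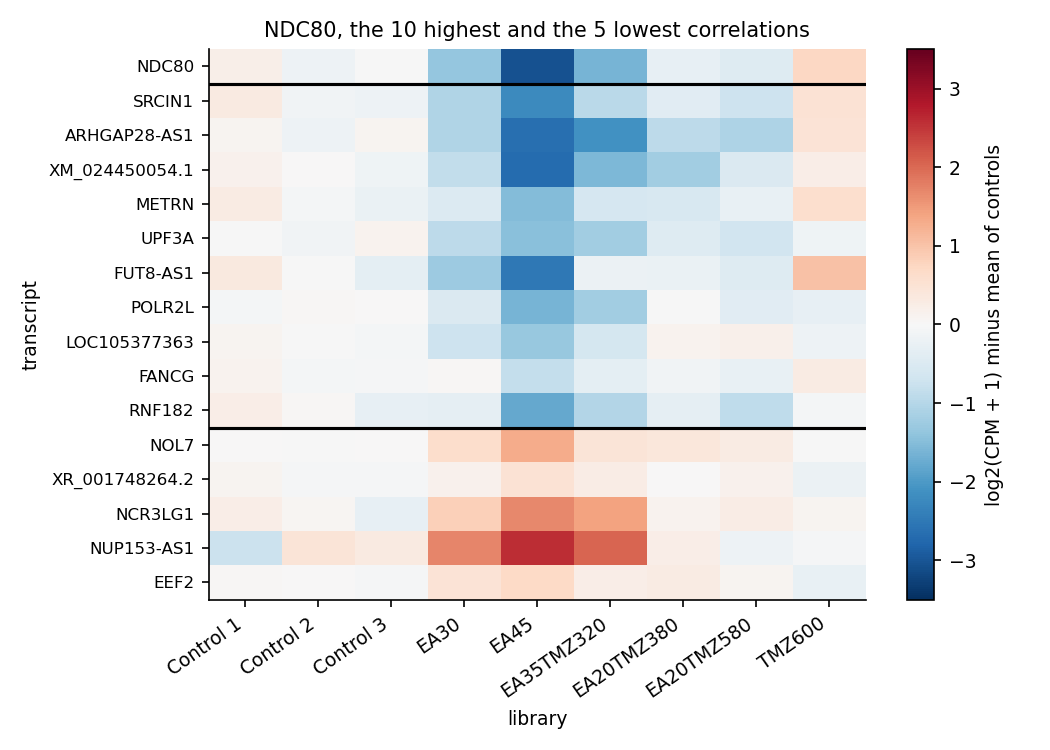
NDC80 (top), the 10 tested transcripts with the highest and the 5 with the lowest Pearson correlation with it, by library; colour is log2(CPM + 1) minus the mean of the 3 controls. The upper 11 are lowest in EA45, while the lower 5 are highest there.

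Within 1 Mb on either side of NDC80, 43 other genes are annotated, 9 of them had counts and 4 were tested, all at least 229597 bases away. EMILIN2, a gene of an extracellular matrix protein 229597 bases away, had log2 fold changes from -0.72 to 0.79 with standard errors of 0.40 to 0.51, and its lowest edgeR adjusted p was 0.133, in EA45. The pseudogene CHORDC1P4 had the sign of NDC80 in all 6 treatments, with log2 fold changes from -1.19 in EA45 to -0.26 in EA20TMZ580 with EA and 0.39 in TMZ600. This match depended on single controls. Without Control replicate 1, CHORDC1P4 gave 0.13 in EA20TMZ580 and -0.08 in EA30, and without Control replicate 2 it gave 0.08 in TMZ600. Its standard errors were 0.54 to 0.67 and its lowest edgeR adjusted p was 0.155. The long non-coding RNA DLGAP1-AS1 rose in the 5 treatments with EA, most in EA45 (log2 fold change 1.26 with standard error 0.20, adjusted p by edgeR 1.51e-06), and gave 0.15 in TMZ600 (standard error 0.22, edgeR adjusted p = 0.754). DESeq2 called DLGAP1-AS1 in EA45 alone. DLGAP1-AS2 rose in all 6, from 2.26 in EA30 (standard error 0.49, edgeR adjusted p = 0.000616) to 4.90 in EA35TMZ320 (standard error 0.43, edgeR adjusted p = 1.3e-12). The controls had only 2, 6 and 8 counts of DLGAP1-AS2 (18.3 ± 10.1 CPM, SD, n = 3), each below the 10 counts that the filter asks as a mean. Its fold changes rest on these few counts, and it passed the filter through the treated libraries. The annotated spans of DLGAP1-AS1 and DLGAP1-AS2 do not overlap each other, but both lie within that of DLGAP1. Without a stated strand setting, reads of either cannot be told apart from reads of DLGAP1. METTL4, whose annotated span lies 52 bases from the start of NDC80, was at 0 in every library.

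The promoters of the tested cell division genes are shown because late cell cycle genes often carry known short motifs near their start. The motifs searched on both strands were the cell cycle homology region, with the letters TTTGAA or else the letters TTCGAA, and the box with the letters CCAAT. E2F motifs were searched as the letters TTCCCGC, then as the letters TTGGCGC, and then as the letters TTCGCGC. Each stretch runs from 120 bases before the RefSeq start to 20 bases from it, 140 bases in all, on the plus strand of GRCh38.p14: chr18:2571437-2571576 for NDC80, chr16:23678769-23678908 for PLK1 and chr5:36876649-36876788 for NIPBL. All 3 genes were matched by symbol in the RefSeq promoter table, and capitals mark the motifs.
NDC80: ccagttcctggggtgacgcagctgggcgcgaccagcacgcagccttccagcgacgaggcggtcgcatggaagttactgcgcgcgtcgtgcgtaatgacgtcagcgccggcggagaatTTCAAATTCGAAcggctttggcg
PLK1: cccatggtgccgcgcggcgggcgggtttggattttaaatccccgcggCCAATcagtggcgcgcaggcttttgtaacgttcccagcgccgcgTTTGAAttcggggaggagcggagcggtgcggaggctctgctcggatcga
NIPBL: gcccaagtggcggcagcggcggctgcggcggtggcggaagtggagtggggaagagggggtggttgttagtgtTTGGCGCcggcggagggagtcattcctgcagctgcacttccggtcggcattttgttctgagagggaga

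NDC80 carries TTTGAA on the minus strand (printed here as TTCAAA) and directly after it the letters TTCGAA, at the RefSeq start itself. PLK1 carries TTTGAA 29 bases and CCAAT 73 bases before the start, and NIPBL carries TTGGCGC 48 bases before it. Among all 35116 promoters of 300 bases in the RefSeq table, 16.4% held a cell cycle homology motif, 34.6% a CCAAT box and 11.0% an E2F motif. In windows of the same 140 bases the shares were 7.17, 21.8 and 5.83%. These matches are letters in a window, not measured sites. Whether they bear on the levels was not tested.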

How the data were processed

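For the 9 libraries the authors deposited counts of RefSeq transcripts, not normalized. The submitters' processing notes name HISAT2, HTSeq and hg38; versions, annotation and strand setting are not given in the sources used here. Symbols came from RefSeq (GRCh38.p14): 57755 identifiers matched with version and 56301 without, and 45011, with 4.63% of the counts, did not match. NDC80 counts were taken from its 1 row. Transcripts whose mean reached 10 counts were fitted with edgeR 4.0.16 (R 4.3.3; TMM, quasi-likelihood F-test, 1 coefficient per condition, Benjamini-Hochberg adjustment over 618 transcripts, threshold 0.05). The residual spread came from 3 controls (2 residual degrees of freedom). The fit moderated it with the spread over all tested transcripts (mean prior degrees of freedom 38.8). So p-values measure only the spread between these control libraries, and rest mostly on the spread shared over transcripts. Counts of control pairs differed by 3.11 to 4.67 in chi-square per degree of freedom. The fit was tested on simulated data. A concentration model had a term per 10 µM EA and per 100 µM TMZ. Alternatives used DESeq2 1.42.0, limma 3.58.1 (limma-voom), other scalings and filters, sums per gene, and fewer libraries. Intervals are exact Poisson intervals at 95% (scipy 1.17.1), or normal intervals for fold changes.

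Named genes were NDC80, tested transcripts of listed genes, the 10 highest and 5 lowest Pearson correlations with NDC80, and tested genes within 1 Mb; KIF11, ASPM, RRM2, CD3E and genes at 0 are given by counts, and ASPM also where it was called without the filter. The members and lists were chosen with earlier results of these data known.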

Additional observations from a re-analysis of the deposited data

How the results depend on the processing

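The log2 fold changes of NDC80 kept their sign, and the 6 treatments their order, under all 11 alternatives. They moved by more than the SD of the controls only with total counts in place of TMM: -1.63 in EA30, -3.31 in EA45, -0.58 in EA20TMZ380 and -0.66 in EA20TMZ580. That scaling does not adjust for the larger mitochondrial share of treated libraries, and the cause was not tested. Leaving out the mitochondrial genes moved none that far. NDC80 kept its pattern in all 6 alternatives; the number of transcripts with it was 28 and with its mirror 6 by total counts, and 3 and 8 under the filter of 50 mean counts, where fewer were tested. The EA term stayed negative without each library in turn, from -0.62 to -0.50 (without EA45), and the TMZ term stayed positive.

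With DESeq2's Wald test the number of transcripts called was 23 in TMZ600, 42 in EA30, 114 in EA45, 58 in EA20TMZ380, 58 in EA20TMZ580 and 150 in EA35TMZ320, against 61, 107, 240, 153, 143 and 271 in edgeR; without the filter it was 93 in EA20TMZ580. Of the cell division genes, 1 was called without the filter, ASPM in EA45 (edgeR adjusted p = 0.0449). Tubulins called numbered 0 with the Wald test in EA30, EA20TMZ380, EA20TMZ580 and TMZ600. That test gave no adjusted p to TUBB2B in EA20TMZ580. Without the filter the number was 1 in EA30, 0 in EA20TMZ380 and 0 in TMZ600. Under the filter of 50 mean counts, where TUBB6 alone was tested, it was 1 in EA30, EA45, EA20TMZ580 and TMZ600. With DESeq2's size factors it was 0 in EA20TMZ380. Without 1 control it was 1 to 2 in EA30, 0 to 1 in EA20TMZ380 and 1 to 2 in TMZ600.

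Some values that did not pass the threshold changed sign. PLK1 in EA30 gave 0.0307 without the filter, 0.0175 under the filter of 50 and -0.13 to 0.047 without 1 control; in EA45 it gave -0.0383 under the filter of 50 and -0.077 to 0.092 without 1 control. NIPBL summed over its transcripts gave -0.35 in EA45, -0.15 in EA35TMZ320, -0.43 in EA20TMZ380 and -0.0419 in EA20TMZ580; in EA35TMZ320 it also gave -0.0779 without the filter and -0.15 to 0.42 without 1 control. TUBA4B in EA20TMZ380 gave 0.0332 with DESeq2's size factors, 0.000875 without the filter and -0.20 to 0.017 without 1 control; in TMZ600 it gave -0.14 to 0.065, and CHORDC1P4 in EA20TMZ580 gave -0.56 to 0.13. No paired analysis was possible because no label pairs a treated library with a control. With 1 library per treatment and 26 counts of NDC80 in EA45, depth and the lack of replicates limit every value above.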
